A study of Mus musculus with 8 samples.

Results

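The regions described here are the faintest DNase I hotspots found in a single library, that of DNCHD4 cells kept without tetracycline for 48 hours. Hotspots of 8 libraries were merged into 99999 sites wherever they overlapped by at least 1 bp. Of these sites, 31957 (32%) were listed only in the DNCHD4 library without tetracycline. A site was kept when its highest peak density there was below 8.05, the lowest peak density listed in the same line with tetracycline. This left 17142 sites (17.1% of all merged sites), made of 17143 hotspots because 1 site held 2. They are called weak DNCHD4-only sites below. The library and the peak density chose them, so their count and their densities are a description.

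DNase-seq maps open chromatin by sequencing the short fragments that DNase I releases from isolated nuclei. All libraries came from 3134 cells, a mouse mammary epithelial line, plated in charcoal-dextran treated serum. DNCHD4 cells carried mouse Chd4 with a triple FLAG tag and a lysine changed to cysteine, integrated by a retroviral vector into a 3134 line with a tetracycline transactivator. DNSnf2h cells carried human SNF2H with a FLAG tag and a lysine changed to arginine, and DNBrg1 cells a dominant-negative Brg1. Tetracycline at 5 µg/ml kept each dominant-negative protein off, and 48 hours without it switched it on. The groups were DNCHD4, DNBrg1, DNSnf2h and parental 3134 cells, each without and with tetracycline, with 1 library per group. Differences below thus have no replicate behind them and carry no p-value. The labels do not say whether a line is 1 clone. The epithelial identity of the cells was not checked, since no gene annotation of the files' build, mm9, was used here.

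Chd4 is the main ATPase of the NuRD complex, which pairs nucleosome remodeling with histone deacetylation. NuRD is known for work at enhancers and promoters, where it limits access to DNA and tempers transcription. A remodeler ATPase with a changed catalytic lysine is commonly used because it can still join its complex while failing to drive remodeling.

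The weak DNCHD4-only sites filled the bottom of a long list. The DNCHD4 library without tetracycline listed 78093 hotspots, from a peak density of 5.09 upward, and the library with tetracycline listed 48888, from 8.05 upward. Peak density is a tag density scaled by a factor of the library, and in every library all values were whole multiples of 1 step, taken here as 1 tag. A tag was worth a density of 0.196 in DNCHD4 cells without tetracycline and 0.179 with it. The weak sites therefore spanned only 16 density levels, from 26 to 41 tags, with a median density of 6.27 (quartiles 5.68 and 7.05). The first level outside the limit was 42 tags, a density of 8.23.

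The other 7 lists began at a higher peak density. Their lowest peak densities were 8.05 in DNCHD4 cells with tetracycline, 9.19 and 16.4 in DNBrg1 cells without and with tetracycline, 8.06 and 8.03 in DNSnf2h cells, and 10.04 and 13.0 in parental cells. DNSnf2h cells with tetracycline were the 1 other library with hotspots below 8.05, and it had 531 (2.13% of its list). A site at the median density of 6.27 would thus have gone unlisted in every other library had it stood at the same deposited density there. The counting error of a single site was also wide. At 26 tags the exact Poisson 95% interval of the density was 3.33 to 7.46, and at 41 tags it was 5.76 to 10.9. From 29 tags upward the interval reached the limit of 8.05, which covered 13006 of the 17143 hotspots (75.9%). This share follows from the tag levels alone, which the rule used, so it is a description. All intervals cover counting error only, since sequenced fragments that lack molecular identifiers may be copies of each other.

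Density changed gradually across the limit. The list held 1449 hotspots at 26 tags, 870 at 41 tags and 882 at 42 tags. The share that no other library listed was 96.5% at 26 tags (interval 95.4 to 97.3), 75.9% at 41 tags (72.9 to 78.6) and 73.5% at 42 tags (70.5 to 76.3). There was no break at the limit in either the number of hotspots or the share listed nowhere else. The limit came from the library with tetracycline, on which the number of hotspots in this list does not depend. The 3 sites just inside it were on chromosome 1, from 5066459 to 5066808, from 10104725 to 10105153 and from 12702494 to 12702931, each at a density of 8.03, and were picked by position among 660 hotspots of that level. The 3 sites just outside it were also on chromosome 1, from 4374878 to 4375323, from 10132599 to 10132972 and from 11223898 to 11224315, each at 8.23. Their widths overlapped, at 349, 428 and 437 bp inside and 445, 373 and 417 bp outside.

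**Figure D1:**
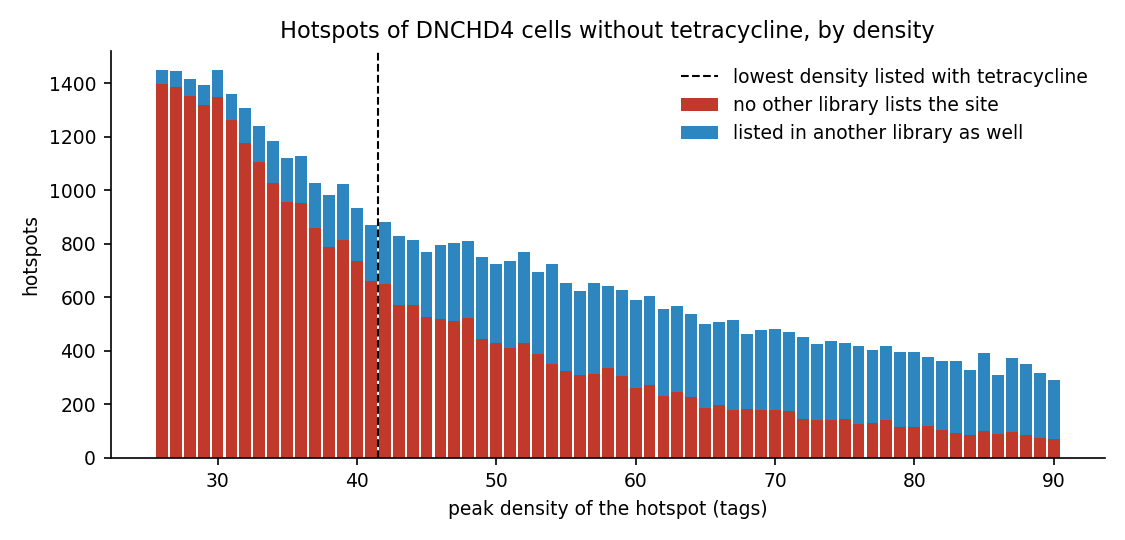
Number of hotspots in DNCHD4 cells without tetracycline (y axis) at each peak density in tags (x axis, higher densities not drawn), split into sites listed in no other library (red) and sites listed in at least 1 other (blue). The dashed line marks the lowest density listed with tetracycline; the bars on either side of it, 870 and 882 hotspots, are alike.

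Equally weak sites that another library did list were few. Of the 19192 sites of this library below the limit, 2050 (10.7%, interval 10.3 to 11.1) were listed elsewhere, and 17142 (89.3%) were not. Equally weak means below the same limit, not of the same density. Hotspots of the sites listed elsewhere had a median density of 7.05 (quartiles 6.27 and 7.64), against 6.27 for the weak DNCHD4-only sites. Contrasts below that pool the levels, among them those of the least width and of the score, were not matched for density. DNCHD4 cells with tetracycline listed 1167 of the 2050 sites, which had a median density of 7.25 without tetracycline and 10.9 with it. DNBrg1 cells without tetracycline listed 615, at a median of 11.2. Both of these lists begin at or above the limit, so their higher densities were fixed in advance and are no measure of change. The remaining 5 libraries listed 271 to 387 each. Most of the 2050 sites, 1186 (57.9%), appeared in just 1 other library, and 4 appeared in all 7.

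The weak DNCHD4-only sites were narrow. Their median width, end minus start, was 377 bp (interval 375 to 381; quartiles 280 and 444). Equally weak sites listed elsewhere had a median of 427 bp (421 to 431), stronger sites listed nowhere else 495 bp (492 to 497), and stronger sites listed elsewhere 655 bp (652 to 657). The narrowest hotspot of each of the 8 lists was 251 bp wide. Exactly that width was found in 2871 hotspots of the weak DNCHD4-only sites (16.7%, interval 16.2 to 17.3), in 7.42% of the equally weak ones listed elsewhere and in 0.529% of the stronger ones listed elsewhere. At the other end, 1648 hotspots (9.61%) were wider than 500 bp.

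Width went with density, and also with being listed elsewhere at equal density. Within the weak DNCHD4-only sites the median width was 327 bp at 26 tags and 430 bp at 41 tags. At 42 tags, just beyond the limit, sites listed nowhere else had a median of 430.5 bp, so width also ran on across the limit. At equal density, sites listed nowhere else were narrower by median than sites listed elsewhere at each of the 16 levels below the limit. At 26 tags the medians were 327 and 345 bp, and at 29 tags 362 and 414 bp. Sites of 1 library are not replicates, and the quartiles of both kinds overlapped at every level. Listing elsewhere was judged by an overlap of at least 1 bp, which a wider hotspot meets more easily. Part of the width contrast may therefore be fixed by the definition, and that part was not tested.

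**Figure D2:**
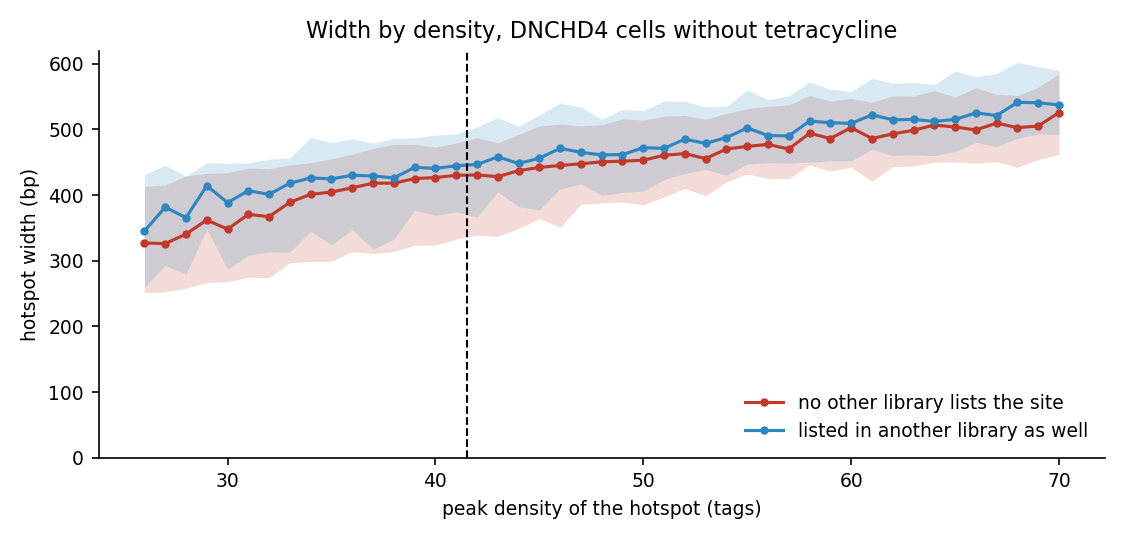
Hotspot width in bp (y axis) by peak density in tags (x axis) in DNCHD4 cells without tetracycline; points are medians and shaded bands run between the quartiles. Sites listed in no other library (red) lie below sites listed elsewhere (blue) by a margin smaller than the bands, and neither line jumps at the dashed limit between 41 and 42 tags.

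The widest weak sites sat in a tight group on chromosome 13. A hotspot from 66690373 to 66691576 was 1203 bp wide at a density of 6.66, and its neighbor from 66692613 to 66693656 was 1043 bp wide at 6.27. Between them, from 66691823 to 66692482, lay a stronger hotspot at 9.01, at gaps of 247 and 131 bp. The DNSnf2h library without tetracycline listed a hotspot 28 bp from the second of these sites, and 2.108 kb from the first. In the other 6 libraries the nearest hotspot was 289 kb or more from both. Next in width was a hotspot on chromosome 14 from 44290173 to 44291212, 1039 bp wide at 5.68.

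The enrichment score, a z-score computed by the authors, had a median of 10.04 over the weak DNCHD4-only sites, against 10.4 for equally weak sites listed elsewhere and 32.3 for stronger sites listed elsewhere. The 3 highest scores belonged to a hotspot on chromosome 14 from 53932255 to 53932516, with a score of 51.4 at the lowest density of the list, 5.09, to 1 on chromosome X from 67878078 to 67878474, with 49.3 at 6.27, and to 1 on chromosome 13 from 66163514 to 66164104, with 42.2 at 6.27. They lay 225, 148 and 528 kb from the nearest stronger hotspot. By score the order of the lists differed from that by density. The lowest score was 8.58 in DNCHD4 cells without tetracycline, 7.91 with it, 8.31 in parental cells with tetracycline and 8.76 to 9.79 in the remaining lists.

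The weak DNCHD4-only sites lay far from stronger hotspots. The gap from a weak hotspot to the nearest hotspot of the same list at or above the limit, edge to edge, had a median of 54.4 kb (interval 52.5 to 56.4; quartiles 14.0 and 179 kb). The median was 20.3 kb (17.98 to 21.8) for equally weak sites listed elsewhere, 6.59 kb for stronger sites listed nowhere else and 4.38 kb for stronger sites listed elsewhere. A stronger hotspot lay within 10 kb of 20.3% of the weak DNCHD4-only hotspots (interval 19.7 to 20.9), against 35.8% (33.7 to 37.9) of the equally weak ones listed elsewhere, 60.9% of the stronger ones listed nowhere else and 69.8% of the stronger ones listed elsewhere. Beyond 100 kb lay 6400 of them (37.3%), and beyond 1 Mb 416.

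The gap was shorter at higher densities, though not at every step. Sites listed nowhere else had a median gap of 178 kb at 26 tags, 53.1 kb at 32 tags, 14.6 kb at 40 tags and 15.4 kb at 41 tags. Beyond the limit it was 12.4 kb at 42 tags and 13.0 kb at 43 tags. At each of the 16 levels below the limit they lay farther out by median than sites of the same density listed elsewhere. At 26 tags the medians were 178 and 89.4 kb, and at 41 tags 15.4 and 9.95 kb.

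**Figure D3:**
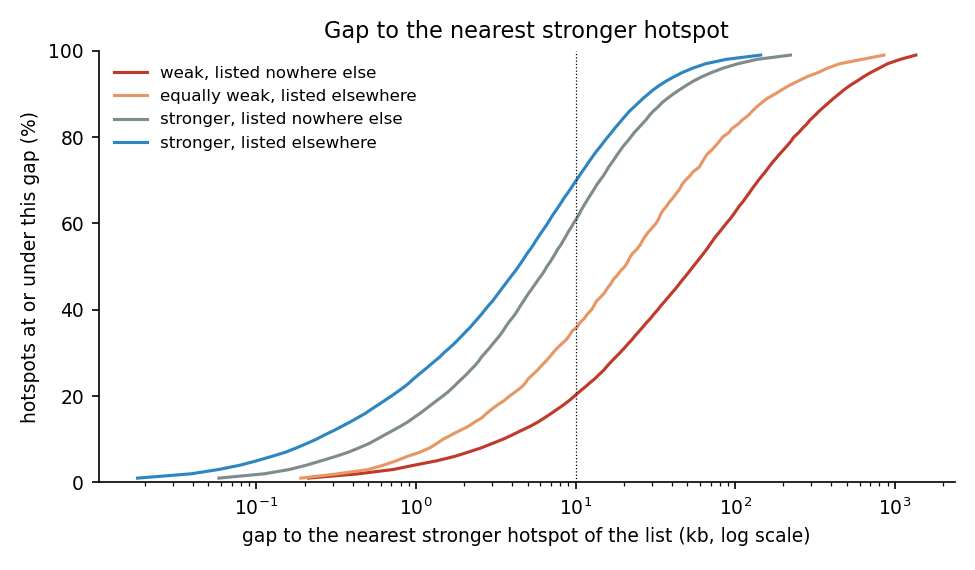
Percentage of hotspots of DNCHD4 cells without tetracycline (y axis) whose gap to the nearest stronger hotspot of the same list is at or under the value on the x axis, in kb on a log scale, for 4 kinds of site, each drawn between its lowest and highest percent; the dotted line marks 10 kb. Weak DNCHD4-only sites (red) cross that line at 20.3% and stronger sites listed elsewhere (blue) at 69.8%.

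The extremes show the range. The most isolated weak sites were on chromosome 15, from 15596373 to 15596680 at a density of 5.29 and from 16020268 to 16020759 at 5.09, and on chromosome 5 from 61210856 to 61211334 at 5.29. Their gaps to a stronger hotspot were 2.78, 2.73 and 2.73 Mb, and their 1 Mb windows held 3, 3 and 2 weak DNCHD4-only sites and no stronger site. The closest were on chromosome 13 from 35085116 to 35085367, on chromosome X from 50265867 to 50266376 and on chromosome 9 from 54399741 to 54400228, at gaps of 4, 5 and 8 bp. The first 2 flanked hotspots with densities of 89.3 and 90.5. The 7 other lists had a hotspot within 209 bp of the site on chromosome X. Their nearest hotspot to the site on chromosome 13 was at 45 to 499 bp, except 19.5 kb in DNSnf2h cells without tetracycline. The site on chromosome 9 adjoined a hotspot at only 8.81.

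Few of these sites lay close to a listed hotspot of another library. A hotspot of any other library lay within 1 kb of 947 weak hotspots (5.52%, interval 5.19 to 5.88), against 14.8% (14.3 to 15.4) of the stronger hotspots listed nowhere else. For the DNCHD4 library with tetracycline alone the shares were 3.19% and 12.4%. The nearest hotspot of that library lay at a median of 87.9 kb from the weak sites and 9.45 kb from the stronger ones. A site below another list's lowest density leaves no hotspot there, so the shares within 1 kb cannot count sites missed by a threshold.

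Some numbers are absent from the lists. Hotspots are numbered in genome order, and 10.7% of the intervals between neighboring hotspots of DNCHD4 cells with tetracycline skipped at least 1 number. Of the 17099 weak DNCHD4-only hotspots that fell between listed hotspots of that library, 78.0% (interval 77.4 to 78.6) lay in an interval with a skipped number, against 30.8% of the stronger hotspots listed nowhere else. Long intervals skip numbers more often, and those around the weak sites had a median length of 444 kb, against 53.4 kb for the stronger sites. Among intervals of 20 to 100 kb the share was 38.2% at weak sites (36.4 to 40.1) and 12.8% over all intervals of that length. Among those of 300 to 1000 kb it was 92.0% and 89.5%. Over all lengths, the share at the weak hotspots was 59.3 to 82.4% in the lists of the other lines. At the stronger hotspots listed nowhere else it was 20.8 to 45.6%, lower in each of those lists. An interval with several weak sites counts several times, and a skipped number gives no position or density. The share at weak sites counts hotspots and the other counts intervals, so length was not matched within a range.

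Weak DNCHD4-only sites were spread over the chromosomes more evenly than stronger ones. They averaged 6.66 per Mb over the span from the first to the last hotspot of each chromosome. On the 19 autosomes the density ran from 5.42 per Mb on chromosome 7 to 8.20 on chromosome 10, a 1.51-fold range with a coefficient of variation of 12.6%. Stronger sites listed elsewhere ranged 2.24-fold over autosomes (20.3%) and stronger sites listed nowhere else 1.99-fold (17.3%). Equally weak sites listed elsewhere, which were far fewer, ranged 2.90-fold (24.0%). The X chromosome stood apart with 3.33 weak sites per Mb (exact Poisson interval 3.05 to 3.62). Over all 20 chromosomes the range was thus 2.46-fold. The X was also lowest in stronger sites listed elsewhere, at 5.20 per Mb. Weak DNCHD4-only sites were 31.9% of its sites in the list, the highest share of any chromosome. Their median width on X was 443 bp and their median gap to a stronger hotspot 30.8 kb.

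The chromosomes richest in stronger sites were not the richest in weak ones. Chromosome 11 had 6.09 weak DNCHD4-only sites per Mb and 26.3 stronger sites listed elsewhere. Chromosome 19 had 5.82 weak and 24.1 stronger sites per Mb, and chromosome 3 had 7.98 weak and 15.4 stronger ones. Over the 19 autosomes the Spearman correlation between the 2 densities was -0.46 for weak DNCHD4-only sites (-0.25 over all 20 chromosomes, with X) and 0.69 for stronger sites listed nowhere else. These correlations describe 1 library, in which all points share depth and threshold, and carry no p-value.

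**Figure D4:**
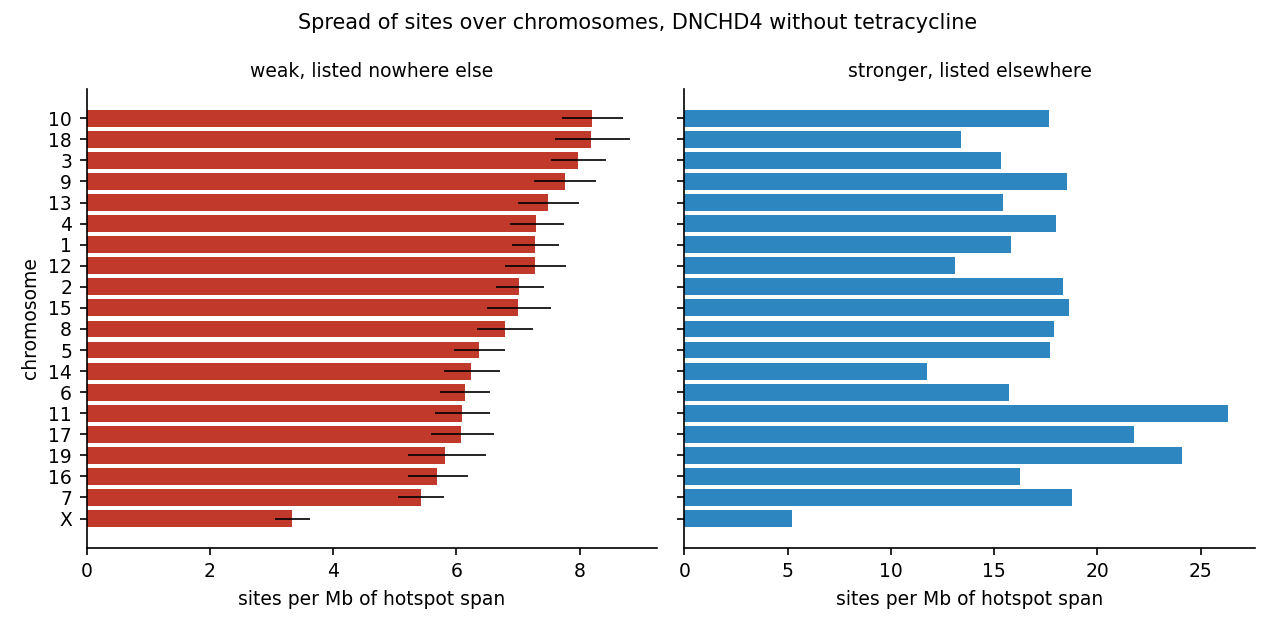
Sites per Mb (x axes) on each chromosome (y axis) for weak DNCHD4-only sites (left, red; black lines are exact Poisson 95% intervals) and for stronger sites listed elsewhere (right, blue). Chromosomes are ordered by the left panel, and chromosome 11 is among the 6 lowest on the left at 6.09 but the highest on the right at 26.3.

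At a finer scale the weak sites were fewest in windows crowded with stronger ones. Of 2538 windows of 1 Mb with a hotspot in any library, 2350 (92.6%) held a weak DNCHD4-only site, with a median of 6. Windows with no stronger site held 5.71 on average, those with 6 to 10 held 9.32, those with 11 to 20 held 9.40, those with 41 to 80 held 2.77, and the 31 windows with over 80 held 0.258. Windows with at most 10 stronger sites contained 43.4% of the weak DNCHD4-only hotspots (interval 42.7 to 44.2) and 32.8% of the equally weak ones listed elsewhere (30.8 to 34.8), and they made up 38.4% of all windows. Over all windows the Spearman correlation between weak DNCHD4-only hotspots and stronger hotspots was -0.32. Its sign rested on the crowded windows, since it was 0.30 over windows with at most 20 stronger hotspots. It also rested on the lowest densities, since it was 0.16 once hotspots below 6.57 were left out of the list.

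The lowest density that the list contained was not the same in all windows. Its median was 5.09 in windows with up to 10 stronger sites, 5.68 with 21 to 40, 7.05 with 41 to 80 and 9.01 with over 80. The authors' score differed with position as well. At equal density, weak DNCHD4-only hotspots beyond 100 kb of a stronger hotspot had a higher median score than those within 10 kb at each of the 16 levels. The medians were 9.67 beyond 100 kb and 9.31 within 10 kb at 26 tags, and 14.0 and 10.1 at 41 tags. The part of this in the position of the weak sites was not tested.

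**Figure D5:**
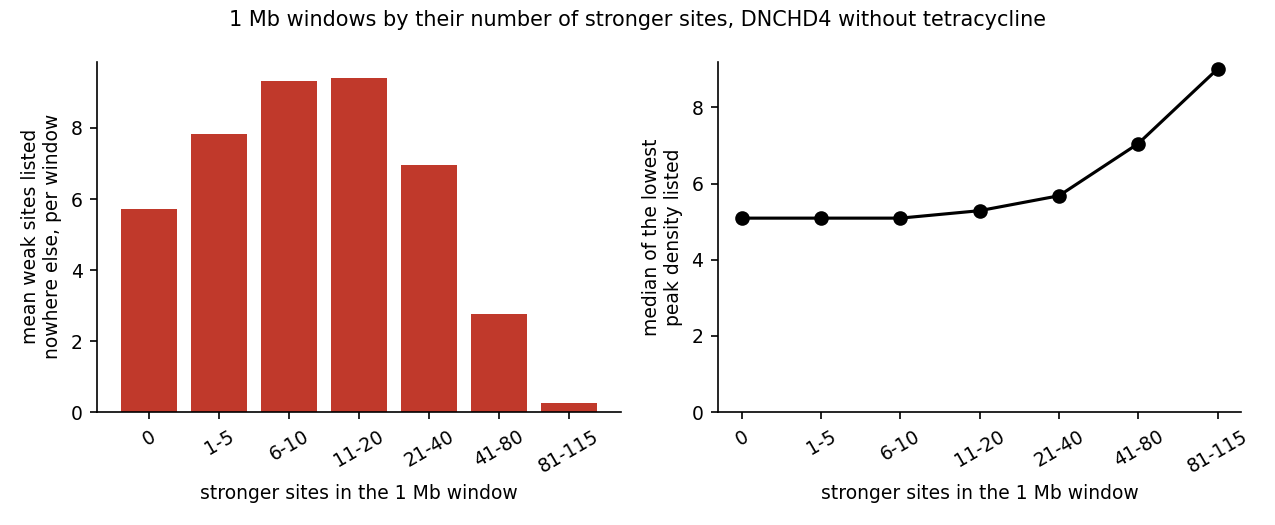
Mean number of weak DNCHD4-only sites per 1 Mb window (left) and median of the lowest peak density listed in a window (right) in DNCHD4 cells without tetracycline, by the number of stronger sites in the window (x axes). Weak sites are most frequent at 9.40 per window with 11 to 20 stronger sites and fall to 0.258 beyond 80. There the median lowest density is 9.01 in place of 5.09, which follows in part from the scarcity of weak hotspots.

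The relation to stronger hotspots of another library turned with density. Hotspots of DNCHD4 cells without tetracycline that no other library listed were counted per window in bands of density and set against the hotspots of parental cells with tetracycline. The Spearman correlation was -0.58 at 26 to 28 tags, -0.39 at 29 to 31, -0.13 at 32 to 35, 0.21 at 36 to 41, 0.54 at 42 to 50, 0.74 at 61 to 80 and 0.51 above 120 tags. The change of sign therefore fell inside the weak sites, below the limit between 41 and 42 tags. All points share these 2538 windows and the counts of the same 2 libraries, while all 8 lists decided which hotspots were counted. Hotspots that overlapped a parental one were thus left out. With all hotspots of the list counted, the correlation was -0.58 at 26 to 28 tags, 0.22 at 36 to 41 and 0.98 above 120.

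The richest windows, chosen after their values were seen, differed in how many stronger sites they held. Of 11 windows with at least 20 weak DNCHD4-only sites, 6 held 0 to 6 stronger sites and 5 held 15 to 21. On chromosome 12 from 28000000 to 28999999 there were 25 weak DNCHD4-only sites, the most of any window, at densities of 5.09 to 8.03, beside 6 stronger sites. The DNCHD4 library with tetracycline listed 5 hotspots there. On chromosome 10 from 123000000 to 123999999 there were 24, beside 3 stronger sites, and on chromosome 17 from 54000000 to 54999999 there were 22, beside 1. An equal 22 stood beside 15 stronger sites on chromosome 6 from 92000000 to 92999999. The window on chromosome 7 from 124000000 to 124999999 had 20 beside 21 stronger sites. On chromosome 9 from 68000000 to 68999999 all 20 sites of the list were weak DNCHD4-only sites, and the only other libraries with a hotspot in that window were DNSnf2h without tetracycline, with 3, and with tetracycline, with 1. In all, 45 windows held 166 weak DNCHD4-only sites and no hotspot of any other library, and in 737 windows these sites outnumbered all other sites of the list.

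The same rule was applied to every list in turn, with weak meaning below 1.58 times the list's own lowest density, the multiple that 8.05 is of 5.09. In DNCHD4 cells 24.8% of the hotspots were weak without tetracycline and 24.4% with it. Of these, 88.7% were listed in no other library without tetracycline (interval 88.2 to 89.1) and 25.8% with it (25.1 to 26.6). The share was 12.3% and 3.05% in DNBrg1 cells, 55.9% and 17.8% in DNSnf2h cells, and 3.37% and 1.00% in parental cells, each without and then with tetracycline. A higher share was thus seen without tetracycline in 4 of 4 lines, the parental line included. The 4 lists with the lowest starting densities, both of DNCHD4 and both of DNSnf2h cells, were also the 4 with the highest shares, and the part of the threshold in these shares was not tested.

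In DNSnf2h cells without tetracycline 59.3% of the hotspots were weak, more than the 24.8% in DNCHD4 cells without tetracycline. The DNSnf2h library without tetracycline came closest in the share listed nowhere else, with 11200 such hotspots. Their median width was 361 bp, against 447 bp for equally weak ones listed elsewhere, and 16.6% were exactly 251 bp wide, a share that was 16.7% in the weak DNCHD4-only sites. Their median gap to a stronger hotspot of their own list was 117 kb, against 54.4 kb in DNCHD4 cells without tetracycline. This gap was 56.6 and 52.8 kb in DNBrg1 cells without and with tetracycline, and 87.6 kb in DNSnf2h cells with it. It was 8.16 kb in DNCHD4 cells with tetracycline, and 18.8 and 8.17 kb in parental cells without and with it. There were 58759 stronger hotspots in DNCHD4 cells without tetracycline and 13770 in DNSnf2h cells without tetracycline, so the gaps of the 2 lists were measured to targets of unequal number.

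The relation with stronger hotspots was also computed for every list as deposited. Over 1 Mb windows the Spearman correlation between all weak and all stronger hotspots was -0.30 in DNCHD4 cells without tetracycline and 0.80 with it. In the other lines it was 0.67 and 0.78 in DNBrg1, 0.59 and 0.74 in DNSnf2h, and 0.81 and 0.85 in parental cells, each without and then with tetracycline. For the lowest 3 density levels of each list alone it was -0.60 in DNCHD4 cells without tetracycline, 0.37 with it, -0.07 in DNSnf2h cells without tetracycline and 0.17 to 0.53 in the other 5 lists. Counting only weak hotspots that no other library listed, the correlation was -0.32 and 0.67 in DNCHD4 cells without and with tetracycline. It was 0.13 and 0.089 in DNBrg1, 0.19 and 0.20 in DNSnf2h, and 0.25 and 0.23 in parental cells, in that order. The deposited lists differ in where they begin, at 26 tags in DNCHD4 cells without tetracycline and 28 to 45 tags in the other 7. With 1 library per group, an effect of the dominant-negative protein, of the library and of its threshold cannot be told apart.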

How the data were processed

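DNase-seq was done on 8 libraries, 1 for each line and tetracycline state. The submitters' processing notes name CASAVA 1.6 and mm9, without their roles. No source used here gives the hotspot caller or its filters. Each library has 1 list deposited by the authors. Whether starts count from 0 or 1 is not stated, so coordinates are printed as deposited. The file headers name a maximum and an average density, which the authors deposited as a tag signal scaled by library in a way that is not stated. A score and a p-value for every hotspot were also deposited by the authors, and both served only for description. Total depth is unknown. Within 0.05 tags, every peak density was a whole number of steps. A step was read as 1 tag, so the lowest hotspot of a list had 26 to 45 tags and the median hotspot 56 to 126.

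Hotspots were merged by running overlap, and a site was judged by its highest peak density in a library. Widths and gaps were computed per hotspot, and the number of libraries per site. Shares have Wilson 95% intervals and medians order-statistic intervals. The sites named are the 3 nearest the limit on each side, the 3 widest, the 3 farthest from and nearest to a stronger hotspot, and the 3 with the highest score. Ties went by chromosome and start. The members, lists and comparisons were chosen with earlier results of these data known. The steps were tested on simulated data, where 500 of 500 planted weak sites among 2000 were recovered. No gene names or sequences are given, since no genome or annotation of build mm9 was used here. Tables were computed in Python 3.11.15 with pandas 2.3.3 and numpy 2.4.6, intervals and correlations with scipy 1.17.1, and plots drawn with matplotlib 3.10.9. Alternatives covered the overlap, the density limits, the libraries left out, the target and window of the gaps, and the dense cluster of chromosome 11 before 4 Mb.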

Additional observations from a re-analysis of the deposited data

Results flagged for a closer look

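In the comparison of the bottom of all lists, weak hotspots listed in no other library were wider without than with tetracycline in DNSnf2h cells, by 14 bp (medians of 361 and 347 bp). In the other 3 lines they were narrower without tetracycline. The medians were 377 and 489 bp in DNCHD4, 450.5 and 516 bp in DNBrg1, and 432.5 and 446.5 bp in parental cells, each without and then with tetracycline. The difference between the lines was not tested, and each median comes from 1 library.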

How the results depend on the processing

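No paired analysis over replicates was possible because each group had 1 library. The 4 lines do give 4 pairs without and with tetracycline, but they carry different proteins or none, so their differences are given as values and were not tested as replicates. There were no replicates to leave out. Of 77 alternative values, 47 stayed within the counting interval of the reported value, or within 1.5 times it for counts. Raising the bottom of the list to 6.57, the midpoint between the lowest densities of the 2 DNCHD4 lists, moved every result, partly by construction since fewer hotspots remained. It left 6793 weak DNCHD4-only sites, a share of 16.8% of equally weak sites listed elsewhere, a median width of 415 bp, a median gap to a stronger hotspot of 22158 bp, 32.1% within 10 kb, a 3.29-fold range over chromosomes, 8.10% within 1 kb of another list and 1684 weak hotspots listed only in DNSnf2h cells without tetracycline (raised in proportion). The correlation over windows turned to 0.16. It also turned, to 0.30, over windows with at most 20 stronger hotspots, and was -0.40 in windows of 0.5 Mb, -0.26 in windows of 2 Mb and -0.090 for hotspots of 29 or more tags. The correlation and all its alternatives, like the next 2 values, were chosen after seeing the data. These hotspots had a median gap of 37553 bp, and those wider than 251 bp a median width of 407 bp. The gap was 24843 bp to any hotspot of higher density and 87900 bp to a hotspot of DNCHD4 cells with tetracycline. A stronger hotspot lay within 5 kb of 12.7% and within 50 kb of 48.2%, and a hotspot of another list within 500 bp of 3.15% and within 5 kb of 18.1%. With an overlap of at least 200 bp, the share listed elsewhere was 10.1% and the share within 1 kb of another list 6.45%. With hotspots up to 500 bp apart merged, these were 11.5% and 2.30%, the gap 58477.5 bp and the share within 10 kb 18.1%. Without the DNSnf2h libraries they were 9.18% and 3.98%, and without the libraries with tetracycline of the other lines 9.98% were listed elsewhere. Leaving out DNSnf2h gives no value for its own list. The 1st percentile of the DNCHD4 list with tetracycline equals its lowest density, so that limit changed nothing, and no random or mitochondrial sequences are in the lists used. Beyond the loss of hotspots, the cause was not tested.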
